A study of Mus musculus with 8 samples.

Results

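The 10 genes described here encode ligands of the vascular endothelial growth factor (VEGF) and angiopoietin families, their receptors, and proteins that mark endothelial cells, the cells that line blood vessels. They were Vegfa, Vegfb, Angpt1, Angpt2, Kdr, Flt1, Tek, Pecam1, Cdh5 and Nos3, taken by name as the probes whose transcript accession belongs to one of these symbols in the RefSeq gene table. This gave 13 probes for 10 of the 21154 genes with a matched symbol on the array. The tissue was brown adipose tissue (BAT), the heat-producing fat of mice, taken after thoracic aortic constriction (TAC), in which surgery narrows the aorta so that the heart works against a higher pressure, or after a sham operation (Sham). All animals were male C57BL/6NCrSlc mice kept at 23 °C on normal chow, operated on at 11 weeks of age and 13 weeks old at collection, with 4 Sham and 4 TAC mice and 1 one-colour Agilent array per mouse. The labels give unlike times after surgery, 2 weeks in the treatment protocol and the source name but 4 weeks in the description line. The comparison of TAC with Sham asks whether RNA of these vascular genes differs in BAT when the heart is under pressure load.

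The scanner values of Sham replicates 2, 3 and 4 and of the 4 TAC replicates were compared, and Sham replicate 1 was used only in a second table of values that holds all 8 arrays. The 7 scanner arrays came from 1 slide, with every Sham array in row 1 and every TAC array in row 2, so place on the slide and surgery cannot be told apart. Between 54.5% and 64.3% of the spots of an array were well above background by the extraction software, and the number of arrays limits the precision of every value. A level is the log2 of a probe's intensity minus that of the 75th percentile of its array, so a level of 0 is the brightness of that percentile and a difference of 1 is a doubling. All 13 probes were well above background on all 7 arrays, and each of the 10 genes was therefore tested. Levels of different probes are not compared with each other, because probes differ in how brightly they bind.

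VEGF ligands released by adipocytes and other cells bind receptor kinases on endothelial cells and drive the growth, survival and leakiness of vessels. Angiopoietins act on another endothelial receptor kinase and set how tightly vessels are held together. BAT is densely supplied with capillaries, which bring oxygen and fuel for heat production and carry the heat away, and Vegfa is known as a major signal that keeps up this network.

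TAC replicate 1 differed from all other arrays in its expression profile. On principal component 1, the axis along which the levels of 33339 probes varied most (39.3% of the variance), its score was 89.6, while the other TAC arrays lay between -8.58 and 3.58 and the Sham arrays between -32.6 and -20.3. Over the table of 8 arrays TAC replicate 1 again lay far off, at 89.9, while Sham replicate 1, at -3.16, lay among TAC replicates 2 to 4, which ran from -7.07 to 4.39. Markers of other cell types also stood out on this array. The mean log2 level of 13 macrophage genes, relative to the Sham mean, was 0.85 on TAC replicate 1, whereas TAC replicates 2, 3 and 4 lay between -0.36 and -0.049. Their summed intensity, in multiples of the 75th percentile, was 78.1 on TAC replicate 1 against 40.5 to 50.1 on the other 6 arrays, and the brightest was Itgam. The mean of 8 lymphocyte genes was 1.15 on TAC replicate 1 and at most 0.145 on the other arrays, with summed intensities between 8.76 and 10.5 over the 7 arrays and Cd4 the brightest, while Cd79a and Ms4a1 were not above background often enough to be tested. The mean of 15 brown adipocyte genes was -1.02 on TAC replicate 1, with a summed intensity of 4076 against 5080 to 6155 on the other arrays and Cidea the brightest. The part of these cells in the results for the vascular genes was not tested.

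Of the 10 vascular genes, only Vegfa differed between TAC and Sham at an unadjusted limma p under 0.05, and no gene passed after adjustment for the 33364 probes tested. Vegfa was higher after TAC, 1 of 10 genes, where 4.38% of all probes were higher by the same rule. None of the 10 was lower, where 8.43% of all probes were. At a Benjamini-Hochberg adjusted limma p under 0.05, 0 probes of the array passed (0% of those tested), and the smallest adjusted p was 0.0575, while 1462 probes were higher and 2814 lower at an unadjusted p under 0.05. The methods' t-test on the same values also gave 0 probes after adjustment, with 1602 higher and 2587 lower before it. Without Sham replicate 3 the unadjusted limma counts were 893 higher and 1602 lower, and without TAC replicate 4, 7 probes were higher and 1 lower after adjustment. The TAC mean lay above the Sham mean for 7 of the 10 genes and for 44.2% of all probes, and the median log2 difference was 0.054 for the 10 genes and -0.032 for all probes. The median of the 10 genes was 0.0030 without TAC replicate 1, 0.022 without Sham replicate 3, 0.020 without Sham replicate 4, 0.11 without TAC replicate 2 and 0.12 without Sham replicate 2. On the table of 8 arrays it was 0.017, and -0.011 there without TAC replicate 1. In bulk tissue, fewer or more cells of a type and less or more RNA in each cell cannot be told apart, which holds for every gene below.

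Vegfa encodes the main growth factor for endothelial cells and was measured by 2 probes. The brighter Vegfa probe, which stands for the gene, had levels of 5.60, 5.27 and 5.46 in Sham replicates 2, 3 and 4 and of 5.76, 5.64, 5.74 and 5.67 in TAC replicates 1 to 4. Every TAC array was above every Sham array, which held for 5.59% of the 33339 probes measured on all arrays, and none of the 10 genes had every TAC array below, as 10.5% of those probes had. The Sham arrays were spread more widely, with Sham replicate 3 lowest and Sham replicate 2 just under the lowest TAC array. The Sham mean was 5.45 ± 0.17 (SD) and the TAC mean 5.70 ± 0.058, a log2 difference of 0.26 or 1.20-fold, with a 95% interval of 1.01-fold to 1.41-fold. The limma p was 0.0366 before and 0.362 after Benjamini-Hochberg adjustment, so Vegfa did not pass the correction although all 4 TAC arrays were higher.

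The other Vegfa probe had levels of 4.31, 4.52 and 4.51 in the Sham replicates and of 4.80, 4.84, 4.78 and 4.53 in the TAC replicates. Here too every TAC array was above every Sham array, but TAC replicate 4 cleared the highest Sham array by less than the spread within Sham. Its log2 difference was 0.29 (95% interval 0.029 to 0.55), with an adjusted limma p of 0.356. Both Vegfa probes thus lay on the same side by a like amount, and they share the same animals, so they do not count as separate evidence.

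The call of Vegfa at the unadjusted threshold was lost in 5 of the 7 fits that left out 1 array. Without Sham replicate 3 the log2 difference shrank to 0.17, while it was 0.27 without Sham replicate 4, 0.24 without TAC replicate 1, 0.25 without TAC replicate 3 and 0.27 without TAC replicate 4, close to the value with all arrays. With Sham replicate 1 included, in the table of 8 arrays, whose log2 values lie 0.17 to 0.21 above the scanner levels, Vegfa was at 5.77, 5.81, 5.46 and 5.66 in Sham replicates 1 to 4 and at 5.95, 5.82, 5.92 and 5.84 in TAC replicates 1 to 4. All 4 TAC arrays were again above all 4 Sham arrays, as for 3.53% of all probes, though Sham replicate 2 and TAC replicate 2 nearly touched, and none of the 10 genes had all TAC arrays below, as 6.29% of all probes had. The log2 difference on these 8 arrays was 0.21 (95% interval -0.0064 to 0.43), the unadjusted limma p 0.0557 and the adjusted p 0.364. No gene of the 10 was higher or lower at an unadjusted limma p under 0.05 on the 8 arrays, where 4.65% of all probes were higher and 9.56% lower, and 0 probes passed after adjustment. The other Vegfa probe had a log2 difference of 0.23 on the 8 arrays, and there its groups overlapped.

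Vegfb encodes a ligand of Flt1 that has been tied to fatty acid handling by endothelium. Its levels were 4.80, 4.74 and 4.64 in Sham replicates 2, 3 and 4 and 4.89, 4.78, 4.89 and 4.85 in TAC replicates 1 to 4. TAC replicate 2 was the only TAC array inside the Sham range, just under Sham replicate 2, and the other TAC arrays were above all Sham arrays. The means were 4.73 ± 0.078 in Sham and 4.85 ± 0.051 in TAC, a log2 difference of 0.13 (95% interval -0.061 to 0.32) with an adjusted limma p of 0.524. In the methods' t-test, Vegfb joined Vegfa under 0.05 before adjustment, which made 2 of the 10 genes, and neither passed after it. On the table of 8 arrays the log2 difference of Vegfb was 0.13, with overlapping groups.

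The sequences just before the starts of the VEGF ligand genes are shown because Vegfa was the gene past the unadjusted threshold, Vegfb is the other VEGF ligand among the 10 genes, and both hold copies of the GC box. The table of RefSeq promoters of build GRCm38.p6 used here held entries for 5 of the 10 genes and none for Angpt1, Angpt2, Pecam1, Cdh5 and Nos3. The 250 bases before the start were taken at chr17:46032378-46032627, minus strand, for the first of 2 Vegfa entries and at chr19:6987652-6987901, minus strand, for Vegfb. Capitals mark GGGCGG, the GC box bound by Sp1, and ACGTG or GCGTG, the core of the hypoxia response element, each on either strand. The motifs ACGTG and GCGTG overlap in their last 4 letters.
Vegfa: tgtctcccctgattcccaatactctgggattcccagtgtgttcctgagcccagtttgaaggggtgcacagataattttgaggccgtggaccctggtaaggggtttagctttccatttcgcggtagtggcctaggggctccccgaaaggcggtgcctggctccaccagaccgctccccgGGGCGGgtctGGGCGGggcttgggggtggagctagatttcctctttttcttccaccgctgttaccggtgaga
Vegfb: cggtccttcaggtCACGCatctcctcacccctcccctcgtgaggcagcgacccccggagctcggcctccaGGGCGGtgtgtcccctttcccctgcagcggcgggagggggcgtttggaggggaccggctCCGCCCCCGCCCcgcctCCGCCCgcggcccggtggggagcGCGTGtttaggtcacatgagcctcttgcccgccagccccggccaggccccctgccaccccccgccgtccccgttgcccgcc
The Vegfa window held 2 copies of GGGCGG, 72 and 62 bases before the start, and no ACGTG or GCGTG. The second Vegfa entry, which starts elsewhere in the gene, held 1 copy of ACGTG, 1 of GCGTG and 1 of GGGCGG. The Vegfb window held 4 copies of GGGCGG and 2 of GCGTG. Among the receptors, the same length held 2 copies of GCGTG and 2 of GGGCGG for Kdr, and 1 of GCGTG and 3 of GGGCGG for Flt1. The window of Tek held none of these. For CAGGAA, a sequence that can be bound by ETS factors, Tek held 2 copies and the first Vegfa window 1, and Kdr held 1 copy of the related CCGGAA. Over all 32851 promoter windows of that length, on either strand, 32.7% held GGGCGG, 38.6% held ACGTG or GCGTG, 25.7% held CAGGAA and 12% held CCGGAA. The GC content was 59.2% for Vegfa and 76.4% for Vegfb, against a median of 52.4% over all windows. These matches describe letters and do not show that a factor binds there.

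Angpt1 encodes the angiopoietin that activates Tek and stabilizes vessels. Its levels were 1.23, 1.32 and 1.02 in Sham replicates 2, 3 and 4 and 1.78, 1.08, 1.14 and 1.26 in TAC replicates 1 to 4. TAC replicate 1 alone was above the Sham arrays, and the other TAC arrays lay within the Sham range. The means were 1.19 ± 0.16 in Sham and 1.32 ± 0.32 in TAC, and the log2 difference of 0.12 (95% interval -0.31 to 0.56, adjusted limma p 0.796) turned to -0.032 without TAC replicate 1. It was 0.036 without Sham replicate 4 and 0.20 without TAC replicate 2.

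Angpt2 encodes the angiopoietin that can block Tek and loosen vessels. Its levels were -2.38, -2.34 and -2.60 in the Sham replicates and -2.14, -2.52, -2.43 and -2.47 in the TAC replicates. As for Angpt1, TAC replicate 1 was the highest array and the other TAC arrays lay among the Sham arrays. The means were -2.44 ± 0.14 in Sham and -2.39 ± 0.17 in TAC, and the log2 difference of 0.048 (95% interval -0.24 to 0.34, adjusted limma p 0.886) was -0.034 without TAC replicate 1, -0.031 without Sham replicate 4 and -0.013 on the table of 8 arrays. Without any other single array it lay between 0.062 and 0.097. The levels of both angiopoietins on TAC replicate 1 went with the raised macrophage and lymphocyte genes of that array, whose part was not tested.

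**Figure D1:**
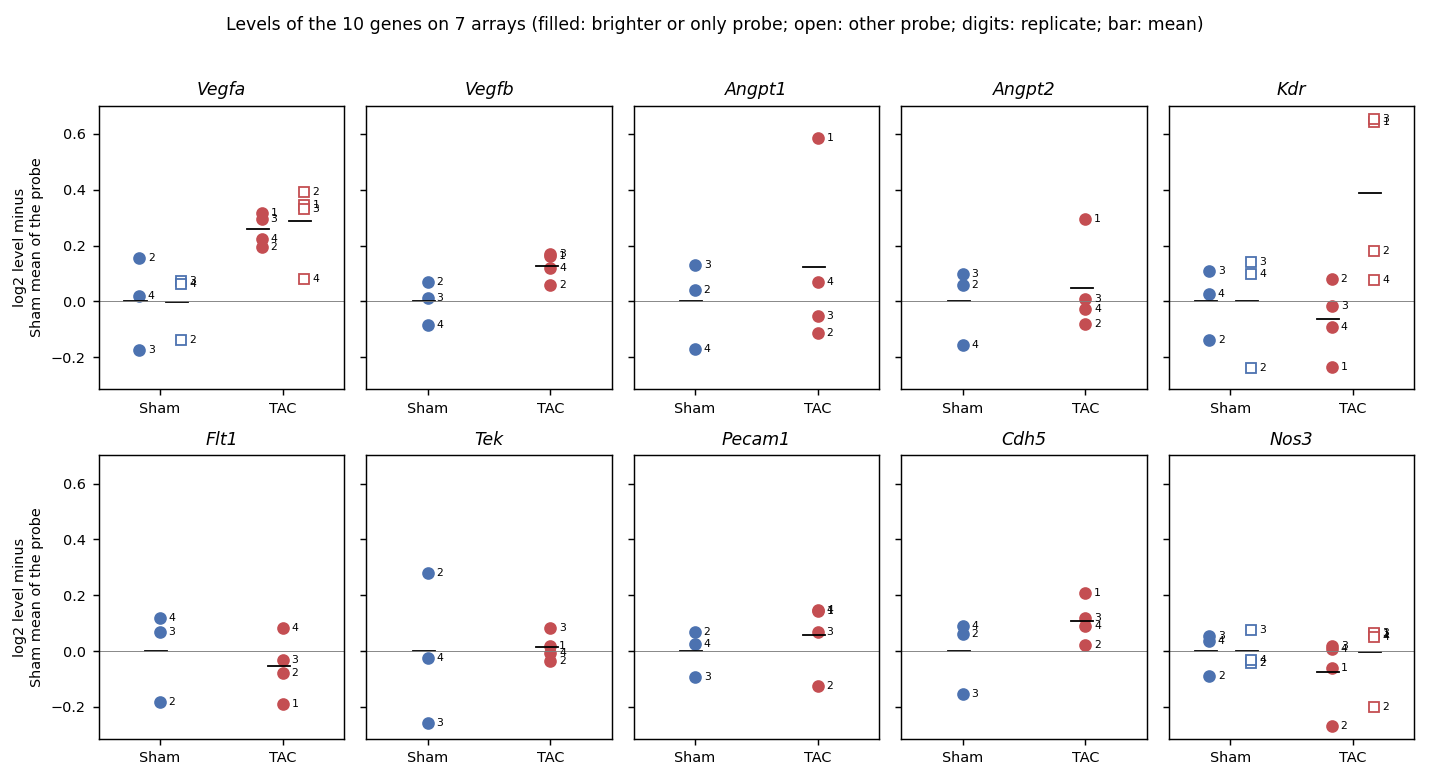
Log2 level of each probe of the 10 genes on the 7 arrays minus the Sham mean of that probe, by group, with filled circles for the brighter or only probe, open squares for the other probe, digits for the replicate and bars for the group mean. Vegfa is the gene in which all 4 TAC arrays lie above all Sham arrays by both probes, while Angpt1 and Angpt2 are high only on TAC replicate 1 and the 2 Kdr probes part ways.

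Kdr encodes VEGF receptor 2, the receptor through which VEGF-A mainly acts on endothelium, and its 2 probes did not give the same picture. The brighter Kdr probe had levels of 4.24, 4.48 and 4.40 in Sham replicates 2, 3 and 4 and of 4.14, 4.46, 4.36 and 4.28 in TAC replicates 1 to 4. TAC replicate 1 was the lowest array, followed by Sham replicate 2, and the remaining TAC arrays lay inside the Sham range. The Sham mean was 4.37 ± 0.13 and the TAC mean 4.31 ± 0.13, a log2 difference of -0.064 (95% interval -0.32 to 0.19, adjusted limma p 0.82). It was -0.0076 without TAC replicate 1, -0.0087 without Sham replicate 3 and -0.13 without Sham replicate 2, and 0.014 with quantile normalization.

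The other Kdr probe, printed in 10 spots of the array, had levels of 2.61, 2.99 and 2.95 in the Sham replicates and of 3.49, 3.02, 3.50 and 2.92 in the TAC replicates. TAC replicates 1 and 3 were well above the Sham arrays, TAC replicate 2 was just above the top of Sham, and TAC replicate 4 was inside the Sham range. The Sham mean was 2.85 ± 0.21 and the TAC mean 3.23 ± 0.30, a log2 difference of 0.39 (95% interval -0.052 to 0.83, adjusted limma p 0.44), or 0.30 without TAC replicate 1. The probes thus had opposite signs, both with overlapping groups, and the mean over the 2 probes was 0.16. Which of them follows the Kdr transcript better was not tested.

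Flt1 encodes VEGF receptor 1, which binds VEGF-A tightly and also binds VEGF-B. Its levels were 4.42, 4.67 and 4.72 in Sham replicates 2, 3 and 4 and 4.41, 4.52, 4.57 and 4.68 in TAC replicates 1 to 4. The groups overlapped over nearly their whole range, with TAC replicate 1 and Sham replicate 2 together at the bottom. The means were 4.60 ± 0.16 in Sham and 4.55 ± 0.11 in TAC, and the log2 difference was -0.054 (95% interval -0.32 to 0.21, adjusted limma p 0.853). It was -0.0091 without TAC replicate 1, -0.021 without Sham replicate 3, -0.10 without TAC replicate 4 and -0.15 without Sham replicate 2. Its sign turned with quantile normalization (0.028), without Sham replicate 4 (0.0044) and on the 8 arrays (0.013), where Sham replicate 1 had the lowest Flt1 value of all, 4.47.

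Tek encodes Tie2, the endothelial receptor of the angiopoietins. Its levels were 0.22, -0.32 and -0.086 in Sham replicates 2, 3 and 4 and -0.044, -0.097, 0.018 and -0.069 in TAC replicates 1 to 4. The TAC arrays lay close together and wholly inside the range of the Sham arrays, which were far apart. The means were -0.063 ± 0.27 in Sham and -0.048 ± 0.049 in TAC, with a log2 difference of 0.015 (95% interval -0.30 to 0.33, adjusted limma p 0.97). The sign followed single arrays, with 0.16 without Sham replicate 2, -0.11 without Sham replicate 3 and -0.0073 without TAC replicate 3, and it was -0.015 with median centring. On the table of 8 arrays it was -0.084, and Sham replicate 1 had the highest Tek value there, 0.47.

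Pecam1 encodes CD31, an adhesion protein found on endothelium at large. Its levels were 0.64, 0.48 and 0.60 in Sham replicates 2, 3 and 4 and 0.72, 0.45, 0.64 and 0.72 in TAC replicates 1 to 4. TAC replicates 1 and 4 were the highest arrays and TAC replicate 2 the lowest, so the Sham range lay inside the TAC range, with TAC replicate 3 level with Sham replicate 2. The means were 0.57 ± 0.084 in Sham and 0.63 ± 0.13 in TAC, and the log2 difference was 0.059 (95% interval -0.18 to 0.30, adjusted limma p 0.82). It was 0.012 without Sham replicate 3, 0.030 without TAC replicate 1 or TAC replicate 4, 0.093 without Sham replicate 2 and 0.12 without TAC replicate 2. In the 8-array table it was 0.021, and -0.011 there without TAC replicate 1.

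Cdh5 encodes VE-cadherin, which joins endothelial cells to each other. Its levels were 2.80, 2.58 and 2.83 in the Sham replicates and 2.95, 2.76, 2.86 and 2.83 in the TAC replicates. Sham replicate 3 was the lowest array and TAC replicate 1 the highest, with the rest overlapping. The means were 2.74 ± 0.14 in Sham and 2.85 ± 0.078 in TAC, a log2 difference of 0.11 (95% interval -0.12 to 0.34, adjusted limma p 0.646), and it was 0.033 without Sham replicate 3 and 0.063 on the table of 8 arrays.

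Nos3 encodes the endothelial nitric oxide synthase, whose product relaxes vessels, and 2 probes measured it. The brighter Nos3 probe had levels of 3.02, 3.17 and 3.15 in Sham replicates 2, 3 and 4 and of 3.05, 2.84, 3.13 and 3.12 in TAC replicates 1 to 4. TAC replicate 2 lay below all other arrays, and the other TAC arrays lay within the Sham range. The Sham mean was 3.11 ± 0.078 and the TAC mean 3.04 ± 0.13, a log2 difference of -0.075 (95% interval -0.31 to 0.16, adjusted limma p 0.77), which shrank to -0.011 without TAC replicate 2 and to -0.048 without Sham replicate 3 and was -0.12 without Sham replicate 2. The other Nos3 probe had levels of 1.07, 1.18 and 1.07 in Sham and of 1.17, 0.91, 1.17 and 1.16 in TAC. It again placed TAC replicate 2 lowest, and its log2 difference was -0.0044 (95% interval -0.24 to 0.23, adjusted limma p 0.99), or 0.061 without TAC replicate 2 and 0.033 without Sham replicate 3, and between -0.028 and -0.021 without any other array.

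**Figure D2:**
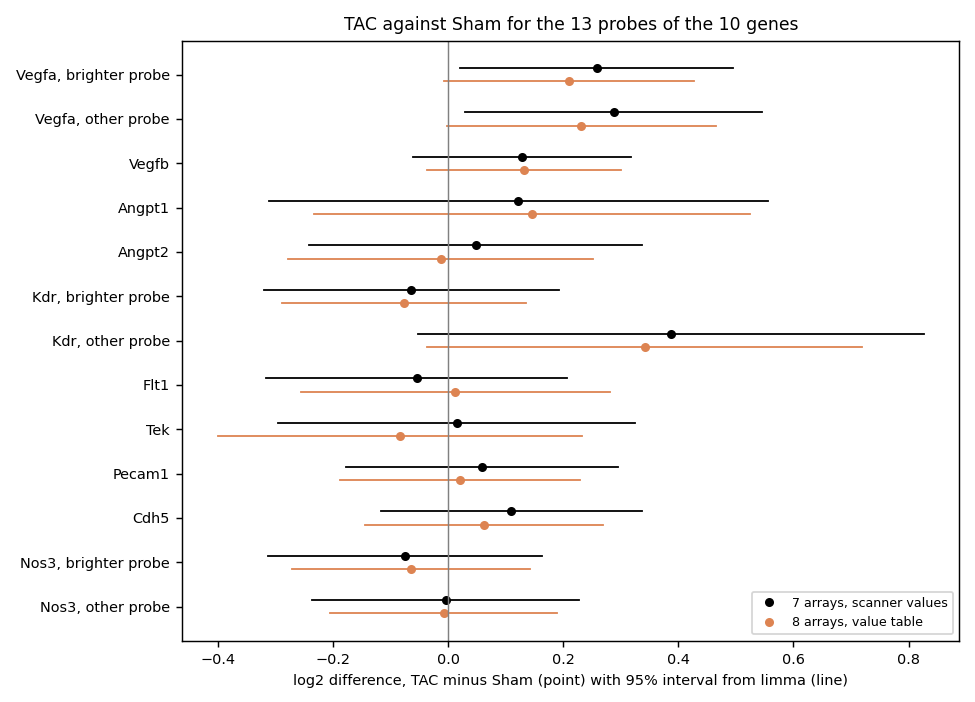
Log2 difference between TAC and Sham (horizontal axis) with its 95% interval from limma for the 13 probes of the 10 genes, in black for the scanner values of 7 arrays and in orange for the value table of 8 arrays. The intervals of the 2 Vegfa probes lie above 0 on the 7 arrays, from 0.021 and from 0.029, and reach below 0 on the 8 arrays, while all other intervals contain 0 on both.

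The intervals give the sizes of difference that are compatible with these arrays. For Kdr, the interval ran from 0.80-fold to 1.14-fold by the brighter probe and from 0.97-fold to 1.77-fold by the other, and for Flt1 it ran from 0.80-fold to 1.15-fold. For the endothelial surface markers, it ran from 0.89-fold to 1.23-fold for Pecam1 and from 0.92-fold to 1.26-fold for Cdh5. For Angpt1, the gene with the widest interval among the 10 represented by their brightest probe, it ran from 0.81-fold to 1.47-fold. A p above the threshold therefore does not show that these genes were equal in Sham and TAC.

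The 6 genes whose transcripts come mainly from endothelium (Kdr, Flt1, Tek, Pecam1, Cdh5 and Nos3) were averaged on each array to describe them together. Each was represented by its brightest probe. Their mean log2 level relative to the Sham mean was 0.000049, -0.046 and 0.046 in Sham replicates 2, 3 and 4 and -0.019, -0.067, 0.040 and 0.039 in TAC replicates 1 to 4. TAC replicate 2 was the lowest and Sham replicate 4 the highest, and the groups overlapped throughout. The mean hid differences between the genes, since on TAC replicate 1 they ranged from -0.23 for Kdr to 0.21 for Cdh5. The other Kdr probe was instead at 3.49 on that array, above its Sham mean of 2.85. The median log2 difference of the 6 genes was -0.020, with 3 above 0, and it was 0.021 with 5 above 0 under quantile normalization and -0.049 with 2 above 0 under median centring. For comparison, the median of all probes was -0.032, -0.019 and -0.062 under these scalings. The other Kdr probe, at 0.39, and the mean of both Kdr probes, at 0.16, had the opposite sign to the brighter one. The count above 0 and the median of the 6 genes therefore depend on the probe that stands for Kdr.

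Unequal change within a pair of the genes was tested for 3 pairs, as the per-array difference of log2 levels relative to its Sham mean, by an exact permutation test, two-sided, whose 35 divisions of the arrays give 0.0286 as the smallest p. Vegfa relative to Vegfb was at 0.084, -0.19 and 0.10 in the Sham replicates and at 0.16, 0.14, 0.12 and 0.10 in the TAC replicates. All 4 TAC arrays were above all Sham arrays, although TAC replicate 4 and Sham replicate 4 almost coincided. The difference of 0.13 had the smallest exact permutation p that the design allows, 0.0286, and 0.0857 after adjustment over the 3 pairs, and on the table of 8 arrays it was 0.078 with an exact permutation p of 0.543. It shrank to 0.037 without Sham replicate 3. The difference was 0.118 with normexp background correction, 0.108 with quantile normalization and 0.145 with the probes of Vegfa averaged. Its adjusted exact permutation p was 0.343, 0.629 and 0.429 in the same order. Angpt2 relative to Angpt1 differed by -0.074 (exact permutation p 0.571, adjusted 0.571), and TAC replicate 1, at -0.29, was far below the other arrays, which lay between -0.099 and 0.059. It was -0.0024 without TAC replicate 1 and -0.12 without TAC replicate 3, but -0.16 on the table of 8 arrays and -0.088 there without TAC replicate 1. Kdr relative to Pecam1 differed by -0.12 (exact permutation p 0.486, adjusted 0.571), with the Sham arrays spread from -0.20 to 0.21 and the TAC arrays from -0.38 to 0.21, and by 0.10 with the mean of both Kdr probes. It was -0.021 without Sham replicate 3, -0.038 without TAC replicate 1, -0.22 without Sham replicate 2 and -0.23 without TAC replicate 2.

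The genes most like Vegfa were sought among 19720 probes with a symbol by Pearson's r over the 7 arrays, as a description with no test. They were Tead2 (r 0.983, Spearman's rho 0.893), Rtn4rl2 (r 0.966, rho 1), Tex10 (r 0.964, rho 0.893), Kcne3 (r 0.961, rho 0.857) and Ap1m1 (r 0.959, rho 1). Without Sham replicates 3 and 4, the arrays farthest from the median of Vegfa, r was 0.873, 0.952, 0.639, 0.63 and 0.915 in the same order, so the likeness of Tex10 and Kcne3 rested largely on those arrays. Of these, Tead2 encodes a transcription factor of the Hippo pathway and Ap1m1 a subunit of a clathrin adaptor. For the mean of the 6 endothelial genes, each gene first standardised over the arrays, they were Btg3 (r 0.965, rho 0.857), Kif3b (r 0.961, rho 0.964), Pcdhgc5 (r 0.949, rho 0.929), Cbfa2t3 (r 0.946, rho 0.929) and Nipbl (r 0.945, rho 0.821). Without TAC replicate 2 and Sham replicate 4, the arrays farthest from the median of that mean, r was 0.925, 0.907, 0.942, 0.945 and 0.914. These are the largest of 19720 values over only 7 arrays, and nothing is read from them about shared control.

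Other genes of the VEGF and angiopoietin pathway (ligands, co-receptors and signalling proteins) were counted as a list, and 30 of 32 were tested. At an unadjusted limma p under 0.05, 4 were higher (Flt4, Tie1, Plxnd1 and Mapk3) and 2 lower (Pik3r1 and, by the brighter of its probes, Notch1), with 24 past neither, where 4.38% of all probes were higher and 8.43% lower, and none passed after adjustment. The median log2 difference was 0.032 against -0.032 over all probes, but it was -0.022 without TAC replicate 1, -0.033 without Sham replicate 2, 0.013 without Sham replicate 3 and 0.080 without TAC replicate 2. Plxnd1, an endothelial semaphorin receptor, was at 3.11, 3.08 and 2.90 in the Sham replicates and at 3.73, 3.48, 3.69 and 3.31 in the TAC replicates. By this brighter probe all TAC arrays were higher on the scanner values, by a log2 difference of 0.53 (adjusted limma p 0.221). On the table of 8 arrays, however, Sham replicate 1 (3.61) was above TAC replicate 4 (3.48) and the difference was 0.41. The other Plxnd1 probe gave 0.49 on the scanner values and 0.37 on the table of 8 arrays, with overlapping groups on both. Tie1, the orphan partner of Tek, had a log2 difference of 0.34 (adjusted limma p 0.335) with overlapping groups, and the kinase gene Mapk3 one of 0.20 (adjusted limma p 0.349) with all TAC arrays higher, while its other probe gave 0.12 with overlapping groups. The lymphatic VEGF receptor Flt4 had one of 1.26 (adjusted limma p 0.332) from a dim probe, well above background on 2 of 3 Sham and 4 of 4 TAC arrays. Foxo1, the brightest of the list, had one of 0.14, which was 0.0075 without Sham replicate 2, 0.22 without TAC replicate 1, 0.27 without Sham replicate 4 and 0.024 by its other probe. The other Notch1 probe gave 0.075.

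All 34 genes of a list of other endothelial markers were tested. At an unadjusted limma p under 0.05, 4 with signal in both groups were higher, against 4.38% of all probes. They were Emcn, Plvap, Podxl and Tie1, the last also counted in the pathway list. At such a p 1 was lower (Fabp5), against 8.43% of all probes. Calcrl also had such a p, but its probe was above background on 0 of 3 Sham and 3 of 4 TAC arrays, so it was tested only through the TAC arrays and no difference is read from it. The median log2 difference of the other 33 genes was 0.089, with 22 above 0, against -0.032 over all probes, and it was 0.038 without TAC replicate 1. With Calcrl counted, the median was 0.098 on the scanner values, 0.14 on the table of 8 arrays and 0.066 there without TAC replicate 1. Plvap, a protein of the pores of fenestrated capillaries, was at 0.83, 0.85 and 1.11 in the Sham replicates and at 1.41, 1.41, 1.43 and 1.14 in the TAC replicates, a log2 difference of 0.42 (adjusted limma p 0.269), while another probe of Plvap gave 0.091. TAC replicate 4 was barely above Sham replicate 4, and the other TAC arrays were clear of Sham. Emcn, a capillary and venous surface protein, had a log2 difference of 0.39 (adjusted limma p 0.295) and Fabp5, a fatty acid carrier, one of -0.42 (adjusted limma p 0.297), both without overlap on the scanner values. In the 8-array table the Emcn groups overlapped, with Sham replicate 1 at 0.39 and TAC replicate 4 at 0.37, and Podxl went from 0.38 to 0.20 with an unadjusted limma p of 0.354. Rgcc, the brightest, had a log2 difference of 0.089, which was 0.0019 without Sham replicate 2, 0.15 without TAC replicate 1 and 0.16 on the table of 8 arrays. The summed intensity of the list was 674, 796 and 831 in Sham and 766, 753, 808 and 831 in TAC, with overlapping groups.

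Mural cells (pericytes and smooth muscle of vessels) were followed with 12 genes, of which 0 were higher and 1 lower, Kcnj8, at an unadjusted limma p under 0.05, a share near the 8.43% of all probes that were lower. Kcnj8, a potassium channel subunit of pericytes, was at 0.77, 0.71 and 0.59 in Sham and at 0.39, 0.26, 0.13 and 0.19 in TAC. All 4 TAC arrays were below the lowest Sham array, and the log2 difference was -0.45 (adjusted limma p 0.197). The median of the mural list was 0.068, or 0.011 without TAC replicate 1, 0.037 without Sham replicate 3 and -0.042 without TAC replicate 3. Its genes did not go together, with Notch3 at 0.29, Myh11 at 0.29, Cspg4 at -0.13 and Mcam, the brightest, at -0.19 by that probe and 0.23 by another. Without TAC replicate 1, Mcam was at 0.026 by its brightest probe and Cspg4 at -0.026, and Myh11 was at 0.16 without TAC replicate 3. Of 6 lymphatic endothelial genes only Flt4, Pdpn (log2 difference 0.26) and Lyve1 (-0.013) could be tested, and their median was 0.26. Flt4 was also counted in the pathway list. Prox1 and Reln were at background on all 7 arrays and Ccl21a had no matched probe. Without TAC replicate 1, Pdpn was at 0.13 and Lyve1 at 0.24. Lyve1 was also at 0.24 without Sham replicate 4, but at -0.2 without Sham replicate 2.

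**Figure D3:**
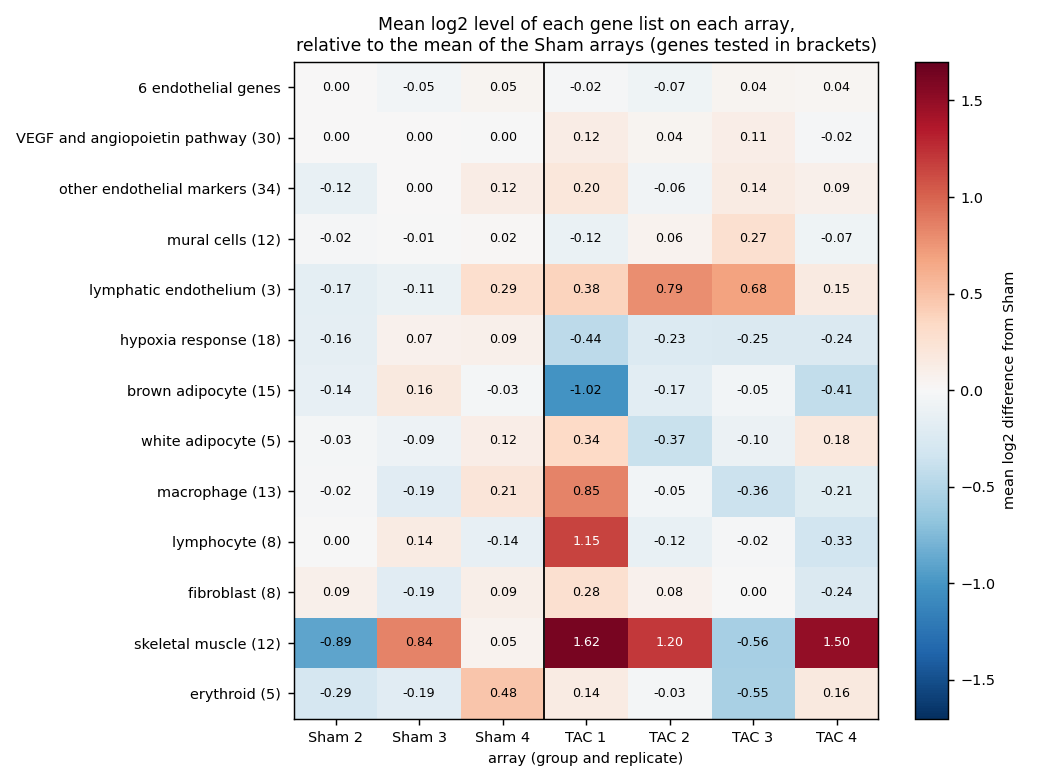
Mean log2 level of the 6 endothelial genes and of each gene list (vertical axis, genes tested in brackets) on each of the 7 arrays (horizontal axis), relative to the mean of the Sham arrays, in red above and blue below it. The 6 endothelial genes, each by its brightest probe, stay between -0.067 and 0.046. The macrophage, lymphocyte and brown adipocyte lists stand apart on TAC replicate 1, and the skeletal muscle list differs widely between arrays of both groups.

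Vegfa is a textbook target of hypoxia-inducible factor, so other genes of the hypoxia response were set beside it. Of 20 such genes 18 were tested. At an unadjusted limma p under 0.05, 1 was higher (Ndrg1), against 4.38% of all probes. By the same rule 7 were lower (Pdk1, Ldha, Pgk1, Higd1a, Eno1, Aldoa and Bhlhe40), against 8.43% of all probes. The TAC mean lay below the Sham mean, the side opposite to Vegfa, for 13 of the 18 and for 18633 of all 33364 probes tested. Whether these genes bear on Vegfa was not tested. Pdk1, which holds pyruvate back from mitochondria, was at 2.00, 1.96 and 1.85 in the Sham replicates and at 1.16, 1.46, 1.14 and 1.34 in the TAC replicates. No TAC array reached the Sham range, and the log2 difference was -0.66 (adjusted limma p 0.196). The glycolytic genes Eno1 (-0.63, adjusted limma p 0.197), Ldha (-0.60, adjusted limma p 0.259) and Aldoa (-0.56, adjusted limma p 0.27) and the clock-linked repressor Bhlhe40 (-1.36, adjusted limma p 0.197) likewise showed no overlap, with TAC lower. The median of the 18 genes was -0.33, against 0.26 for Vegfa and -0.032 for all probes. It was -0.20 without TAC replicate 1, -0.50 without Sham replicate 2, -0.22 on the table of 8 arrays and -0.085 there without TAC replicate 1. On single arrays the mean of the list was -0.16, 0.067 and 0.092 in Sham and -0.44, -0.23, -0.25 and -0.24 in TAC, so TAC replicate 1 was lowest. On the table of 8 arrays the groups of list means overlapped. Sham replicate 1 was there at -0.21, below TAC replicates 2, 3 and 4 at -0.17, -0.19 and -0.19. Of the 20 hypoxia genes 18 had a promoter entry, and all 18 held ACGTG or GCGTG in the 250 bases before a start, as did 4 of the 5 vascular genes with an entry, and Vegfa only in its second entry. Counted in the same way, over any entry of a gene, 41.5% of the 27025 genes in the table did.

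**Figure D4:**
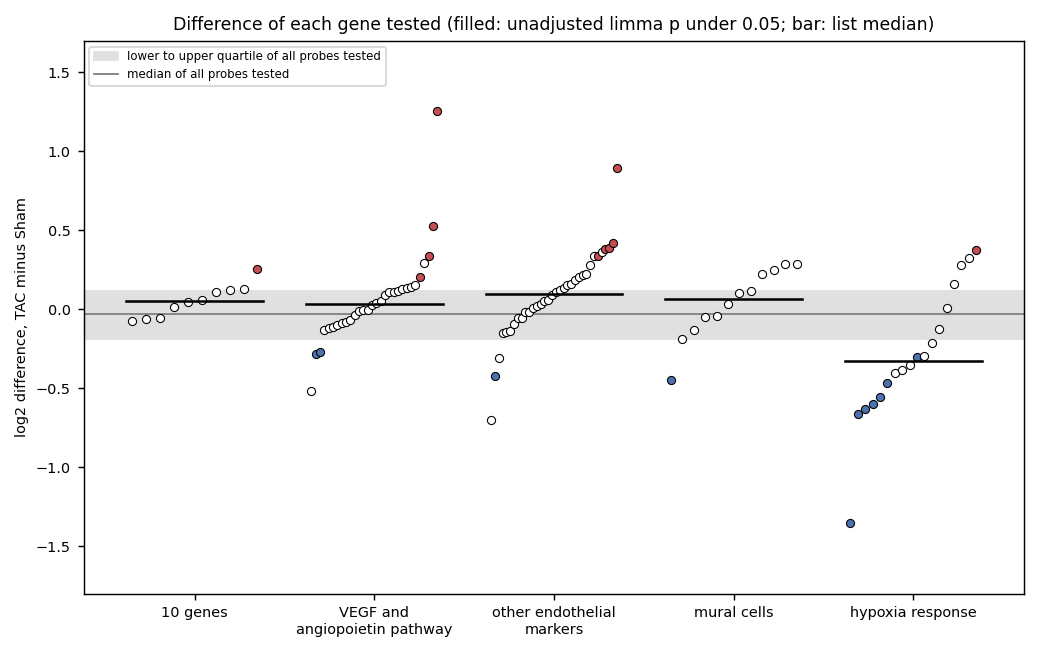
Log2 difference between TAC and Sham (vertical axis) of each gene tested, for the 10 genes and 4 gene lists (horizontal axis), with filled points at an unadjusted limma p under 0.05, black bars at list medians, a grey line at the median of all probes and a grey band between their quartiles, from -0.19 to 0.12. Of the 10 genes only Vegfa is filled, the highest endothelial marker is Calcrl, whose probe was at background in Sham, and the hypoxia list has a median of -0.33. The band shows the spread of single probes, so the place of a list median relative to it is no test of the list.

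The remaining cell type lists give the setting in which the vascular genes were measured. Of 15 brown adipocyte genes, 3 were lower at an unadjusted limma p under 0.05 (Ucp1, Plin1 and Otop1) and 0 higher, against 8.43% and 4.38% of all probes, with a median log2 difference of -0.17. With all 8 arrays, Elovl3 and Ebf2 joined them, 5 lower in all, and the median was -0.11, as it also was on the scanner values without TAC replicate 1, with -0.10 without Sham replicate 3. Ucp1, the uncoupling protein of brown fat, was bright on every array and differed by -0.61 (adjusted limma p 0.336), or -0.42 without TAC replicate 1. Cidea differed by -0.11 and Dio2 by -1.10, both with overlapping groups. Without TAC replicate 1, Cidea was at -0.016 and Dio2 at -0.60. Among the macrophage genes Cd14 was higher and none lower on the scanner values. On the table of 8 arrays the Cd14 groups overlapped (unadjusted limma p 0.0818), and no macrophage gene was higher or lower by this rule. The macrophage median was 0.059 on the scanner values and -0.023 on the table of 8 arrays. Without TAC replicate 1 the macrophage median was -0.31 on the scanner values, with 10 of 13 genes below 0, it was -0.071 without Sham replicate 3, and it lay between 0.12 and 0.26 without any other array. Adgre1, a defining macrophage marker, was at 0.76 on TAC replicate 1 and between -1.27 and -0.34 on the other arrays. No gene passed at an unadjusted limma p under 0.05 in either direction in the lists of 8 lymphocyte genes (median 0.069), 8 fibroblast genes (0.048), 12 skeletal muscle genes (1.02), 5 erythroid genes (-0.057) and 5 white adipocyte genes (0.071). With all 8 arrays the sign of the median turned for lymphocyte (-0.036), fibroblast (-0.0094), erythroid (0.13) and white adipocyte genes (-0.088), where 1 white adipocyte gene, Hoxc8, was lower, and the skeletal muscle median was 0.77. On the scanner values without TAC replicate 1, the medians were -0.20 for lymphocyte, -0.057 for fibroblast, 0.80 for skeletal muscle, -0.14 for erythroid and 0.16 for white adipocyte genes. Leaving out other arrays moved the erythroid median between -0.22 (without Sham replicate 2) and 0.18 (without Sham replicate 4), with 0.091 without TAC replicate 3, and the white adipocyte median between 0.0072 (without Sham replicate 3) and 0.24 (without TAC replicate 2). The lymphocyte median was -0.0079 without Sham replicate 4 and 0.32 without TAC replicate 4, the fibroblast median -0.068 without Sham replicate 3 and 0.17 without TAC replicate 4, and the skeletal muscle median ranged from 0.61 without Sham replicate 2 to 1.55 without TAC replicate 3. The skeletal muscle genes were spread widely within both groups, with summed intensities of 45.5, 163 and 82.9 in Sham and 263, 209, 57.7 and 267 in TAC and Myh4 the brightest. TAC replicates 1, 2 and 4 were high and Sham replicate 2 and TAC replicate 3 low, and the part of muscle RNA in the values of the vascular genes was not tested. The summed fibroblast intensities lay between 181 and 266, with Dcn the brightest, and the erythroid sums between 1111 and 1882, with Hba-a2 the brightest. The white adipocyte sums lay between 24.2 and 39.8, with Retn the brightest.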

How the data were processed

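Total RNA of BAT was labelled with Cy3 and hybridized to Agilent one-colour arrays. The submitters' processing notes name Agilent Feature Extraction 10.7.1.1. The deposited scanner values are, per the file headers, spot intensity values with the background subtracted, linear and without scaling from array to array. A table of intensity values for all 8 arrays was deposited too. On the 7 arrays with both, 99.82% to 99.91% of its values for probes above 100 units were within 1% of the scanner intensity times 1 factor per array. Its columns had a 75th percentile of 1.002 to 1.004 and a median of 0.091 to 0.098, so it holds intensities divided by the 75th percentile over probes.

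Of 59305 spots, those marked as outliers by the software (134 to 191 per array, none of a vascular gene probe) were left out. Intensities were converted to log2, the array's 75th percentile was subtracted, and spots of a probe were averaged. Testing required a probe to be well above background on at least 3 of 7 arrays and to have values on at least 2 per group, which left 33364 of 55681. The groups were compared with limma 3.58.1 (lmFit, eBayes) under R 4.3.3, p was adjusted by Benjamini-Hochberg over all probes tested, and the threshold was 0.05. The fit was tested on simulated data. Symbols came from the RefSeq gene table of GRCm38.p6, which named 28026 probes (50.3%), or 94.1% of those with a RefSeq accession. The brightest probe stands for a gene. No pairing of replicates is stated, and the residuals of like-numbered replicates had correlations of -0.026 to 0.0017 across probes on the scanner arrays and of 0.02 to 0.27 in the table.

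The genes named are all 10 vascular genes, the 4 with the smallest limma p and the brightest of each vascular or hypoxia list, the first 3 and the brightest of each cell type list, and the 5 most like Vegfa and the 5 most like the mean of the 6 endothelial genes. Genes listed beside a count, or to place TAC replicate 1, are named in addition. The members and lists were chosen with earlier results of these data known. Alternatives were median centring, quantile normalization, normexp correction (offset 50), the table of 8 or of 7 arrays, no filter, a filter requiring every array, keeping outlier spots, a variance trend with intensity, the methods' t-test, a replicate block, leaving out single arrays, and the mean of a gene's probes. The table without TAC replicate 1 was added after seeing the data.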

Additional observations from a re-analysis of the deposited data

Results flagged for a closer look

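In 4 of 38 groups of 4 arrays examined, 1 array lay far from the other 3, by its gap to the nearest array as a share of the range of the group. Chance gives this in about 1 in 20 groups. For the 10-spot Kdr probe in the table of 8 arrays, Sham replicate 2 lay below the other Sham arrays with a share of 0.897. For the 10-spot Nos3 probe, TAC replicate 2 lay below the other TAC arrays with a share of 0.95, and in the table Sham replicate 3 lay above the other Sham arrays with a share of 0.854. For the mean of the hypoxia genes, TAC replicate 1 lay below the other TAC arrays with a share of 0.908.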

How the results depend on the processing

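Over 21 alternatives, 244 of 270 log2 differences of the vascular gene probes kept their sign and 26 reversed, and none passed the adjusted threshold. Vegfa (0.17 to 0.34), Vegfb (0.086 to 0.22), Cdh5 (0.027 to 0.17), Nos3 by its brighter probe (-0.12 to -0.011) and the other probes of Vegfa and Kdr did not reverse under any of them. The counts of kept and reversed signs are not counts of separate checks. The changed filters, keeping outlier spots, the variance trend and the methods' t-test left all these differences as they were, so no sign could reverse there. Each replicate block repeated the differences of another alternative with the same arrays. Where values changed, the cause was not tested.

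After adjustment, 1 probe of the array was lower with normexp correction and 1 with median centring, in place of 0. With 1 array left out, 0 to 7 probes were higher and 0 to 1 lower after adjustment, and 893 to 1562 were higher and 1602 to 2995 lower before it. The count of vascular genes higher before adjustment, 1 of 10, was 0 with median centring, with no filter on dim probes, on the table of 8 arrays, on that table without TAC replicate 1 (chosen after seeing the data) and with the replicate block on 7 or 8 arrays, 2 with the methods' t-test, and 0 to 1 with 1 array left out (0 in 5 of 7 fits).

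Reversed values were -0.015 for Tek with median centring, and with quantile normalization 0.014 for Kdr, 0.028 for Flt1 and 0.015 for the other Nos3 probe. On the table of 8 arrays they were -0.013 for Angpt2, 0.013 for Flt1 and -0.084 for Tek. On that table without TAC replicate 1 they were -0.010 for Angpt1, -0.098 for Angpt2, 0.055 for Flt1, -0.088 for Tek and -0.011 for Pecam1. With a gene's probes averaged, Kdr was at 0.16 and Kdr relative to Pecam1 at 0.10. With 1 array left out, Tek ranged from -0.11 to 0.16, Angpt1 from -0.032 to 0.20, Angpt2 from -0.034 to 0.097, Flt1 from -0.15 to 0.0044, Pecam1 from 0.012 to 0.12 and the other Nos3 probe from -0.028 to 0.061.

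The replicate block on the 7 arrays drops TAC replicate 1, which has no Sham partner there, and gave 0 adjusted probes, 1345 higher and 2480 lower before adjustment, with Angpt1 at -0.032 and Angpt2 at -0.034. The replicate block on the table of 8 arrays gave 0 adjusted probes, 1579 higher and 3475 lower, with Angpt2 at -0.013, Flt1 at 0.013 and Tek at -0.084.

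With 3 and 4 arrays a group, the number of arrays limits the precision. Tek, Pecam1 and Angpt2 were measured well above background on every array, but Flt4 and Calcrl were not, and their differences are limited by the background.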
